A study of Mus musculus with 278 samples.

Results

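Neurog3 encodes NEUROG3, a basic helix-loop-helix transcription factor, and in the mouse testis its transcript is a marker of progenitor spermatogonia. These are undifferentiated germ cells that are on the way from the stem cell pool to differentiation. The cells described here were chosen by their measured Neurog3 value: they are the single spermatogonia in which it was listed at 1 FPKM or more. FPKM is a count of fragments divided by transcript length and by the number of fragments mapped in that cell. There were 28 such cells among 278, a share of 10.1% (95% exact binomial interval 6.8% to 14.2%, which covers counting error only). The other 250 cells, with Neurog3 below 1 FPKM, served as the comparison.

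All cells came from testes of untreated mice at postnatal day 6 that carry an Id4-EGFP reporter, and all were EGFP-positive spermatogonia by flow sorting and the labels. Each library is 1 cell, captured on a Fluidigm C1 chip, imaged for EGFP brightness and amplified with SMARTer chemistry. The labels place every cell in a quartile of EGFP brightness, from Q1 (brightest) to Q4 (dimmest). The 5 cell preparations each pooled testes of at least 2 pups, and the labels tie no cell to a pup. Every group therefore shares the reporter, the age and the sort for EGFP, so cells without EGFP were not sampled.

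NEUROG3 acts as a dimer with broadly expressed E proteins such as TCF3 and TCF12, and ID proteins, Id4 among them, take up those partners. In undifferentiated spermatogonia GDNF, acting through GFRA1 and RET, maintains the stem cell state. Progenitors express Sox3, Lin28a, Upp1, Rarg and Nanos3, and retinoic acid then moves them to the Kit and Stra8 positive differentiating state. In the embryonic pancreas NEUROG3 switches on a different set of genes, those of endocrine cells.

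Neurog3 was listed at 0 in all but 30 cells. The cells just below the threshold had 0.71 and 0.86 FPKM, and those just above it had 1.46, 2.30 and 2.41 FPKM. Among the 28 detected cells the value ran from 1.46 to 105 FPKM with a median of 19.1. In preparation 1, with 4 detected cells of 26, it ran from 1.46 to 52.7 FPKM. In preparation 2, with 9 of 62, it ran from 4.77 to 94.3 FPKM with a median of 51.3. In preparation 3 there were 2 of 37, at 45.2 and 60.3 FPKM. In preparation 4, with 8 of 75, it ran from 5.91 to 95.7 FPKM with a median of 9.07. In preparation 5, with 5 of 78, it ran from 2.41 to 105 FPKM with a median of 20.5. Every preparation had detected cells and the ranges of the preparations overlapped. These values chose the cells and are given as a description.

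**Figure D1:**
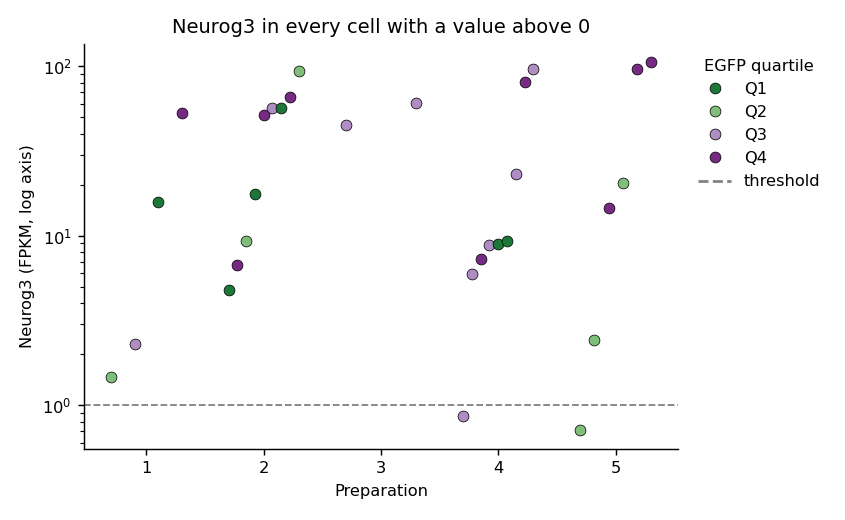
Neurog3 in FPKM (log axis) for each of the 30 cells with a value above 0, by preparation, coloured by EGFP quartile. The dashed line marks the threshold of 1 FPKM, below which lie 2 of these cells, and the values above it span 1.46 to 105 FPKM.

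On GRCm38, Neurog3 lies on chromosome 10 at 62133090 to 62134763 on the plus strand. Its exons overlap those of Fam241b on the opposite strand, and the sources used here do not state whether reads were counted by strand. Fam241b, under its older name 2010107G23Rik, was listed at FPKM of at least 1 in 19 of the 28 detected cells and in 93 of the 250 others. It averaged 9.78 ± 5.65 FPKM in detected cells and 5.56 ± 1.83 in the others (SD, n = 5 preparations). Because reads of the pair cannot be told apart, both genes were left out of every test.

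EGFP brightness was measured by imaging, independently of the transcript that chose the cells. Neurog3 was detected in 6 of 74 cells of Q1 (8.11%), 5 of 70 of Q2 (7.14%), 8 of 74 of Q3 (10.8%) and 9 of 60 of Q4 (15%). Over preparations the detected share was 7.82% ± 6.47 in the brighter quartiles (Q1 and Q2) and 13.4% ± 4.41 in the dimmer quartiles (Q3 and Q4; SD, n = 5). The difference, dimmer minus brighter, was 4.85, -2.29, 10.5, 12.1 and 2.56 percentage points in preparations 1 to 5. It was thus above 0 in 4 of 5 preparations, with a mean of 5.56 ± 5.90 (SD). This did not pass an exact permutation test (two-sided, p = 0.125, where 5 preparations allow no p below 0.0625). Detected cells of the dimmer quartiles had a median of 51.3 FPKM of Neurog3 and those of the brighter quartiles 9.27, a difference that the rule itself bears on and that was not tested.

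**Figure D2:**
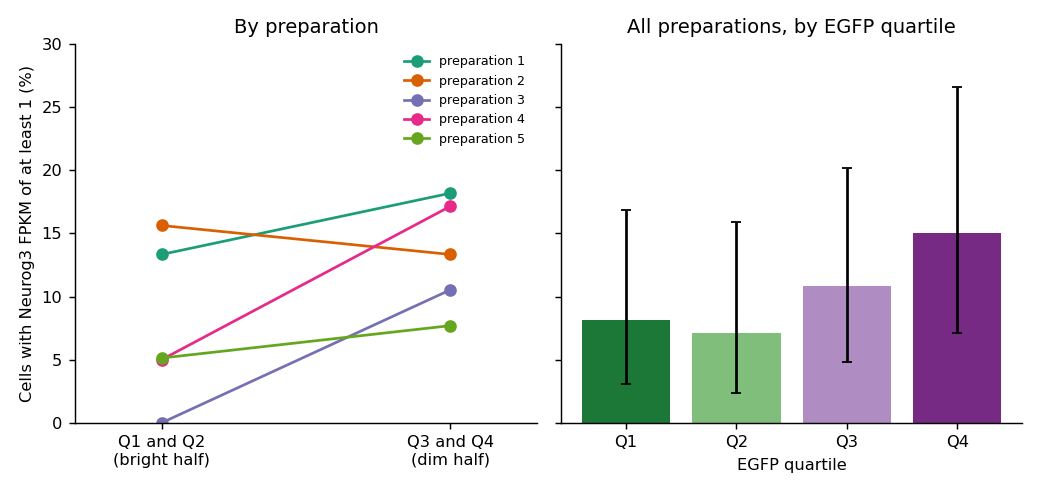
Share of cells with Neurog3 at FPKM of at least 1, in percent. Left, brighter (Q1, Q2) and dimmer (Q3, Q4) cells in each preparation, joined by a line; right, all cells by EGFP quartile, with 95% exact binomial intervals for counting error only (8.11%, 7.14%, 10.8% and 15%). In 4 of 5 preparations the dimmer cells have the larger share.

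The number of genes and the depth per cell were compared next. Detected cells had 6166 ± 1190 genes at FPKM of at least 1 and the others 6082 ± 1062 (SD, n = 5). The difference within preparations was 83.2 ± 148 genes, from -118 in preparation 3 to 240 in preparation 2, and above 0 in 3 of 5 (exact permutation test, two-sided, p = 0.3125). Estimated depth was 643353 ± 184865 mapped fragments per cell against 650026 ± 134782. The log2 ratio was -0.04 ± 0.17 (exact permutation test, two-sided, p = 0.75). A cell in which fewer molecules were captured can miss a transcript, so some of the 250 other cells may express Neurog3 below detection.

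The germ cell identity of the detected cells was checked first. All 28 detected cells and all 250 others had Ddx4, Dazl, Mael and Uchl1, which are expressed throughout the early germ line, at 1 FPKM or more. Detected cells had from 14 to 18 of 19 germ cell markers, with a median of 16.5, and other cells from 7 to 19, with a median of 16. Across the germ cell list 15 of 18 tested genes had fitted differences above 0, with a median of 0.27 beside 0.03 over all genes. The median was above 0 in 5 of 5 preparations, while none of the 18 passed over all genes. Nanos3, Tex101 and Asz1, a piRNA pathway protein (0.46 ± 0.21), were higher at an unadjusted p under 0.05 (3 of 18 members, none lower, where 2.96% of all genes were higher and 2.78% lower).

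To compare the 2 sets of cells, the mean of log2(FPKM + 1) was taken over the cells of each preparation and class, and the 10 means were fitted with limma with preparation as a block. All differences below are on this scale, detected minus other, and understate changes of low genes. A mean of logs can differ in direction from a mean FPKM, since it weighs how many cells express a gene more than how strongly a few do. Of 10450 genes tested, 0 passed an adjusted p of 0.05 (0% higher and 0% lower). The smallest limma adjusted p was 0.59. When the log was taken of the mean FPKM over cells instead, 1 gene passed (0.00957%), Gm12238, an unnamed transcript listed at 0 in all 28 detected cells. It reached the filter's 28 cells through the other cells alone, so its difference could have only that direction. An unadjusted p under 0.05 was found for 599 genes, 5.73% of those tested, where an even spread of p-values gives 522.5. Of them 309 were higher (2.96%) and 290 lower (2.78%) in detected cells. This split depended on the processing: it was 67 higher and 712 lower when cells were averaged before the log, 337 and 1111 without a filter on low genes, and 95 and 32 without the preparation block. The typical standard error was 0.36, so that the 95% interval of a typical gene reached 0.76 to either side. Intervals differed by gene, and for a typical gene a difference smaller than this could not be told from 0. The median of the fitted differences over all genes was 0.03. Within preparations that median averaged -0.043 ± 0.13 (SD, n = 5) and was above 0 in 3 of 5 (exact permutation test, two-sided, p = 0.6875).

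Progenitor genes, the group to which Neurog3 belongs, mostly had positive differences, and none of them passed the test. Of 10 tested members 8 had a fitted difference above 0, with a median of 0.39 beside 0.03 over all genes. Of the 10, 2 were higher and 0 lower at an unadjusted p under 0.05, beside 2.96% and 2.78% of all genes. The list's median was 0.49, 0.37, -0.67, 0.21 and 0.37 in preparations 1 to 5, so only preparation 3, with its 2 detected cells, went the other way. With detected genes as a covariate the fitted median was 0.032 beside -0.034 over all genes, and without preparation 2 it was 0.25.

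Upp1, the gene of uridine phosphorylase, an enzyme of pyrimidine salvage, had the largest difference of the progenitor list. It averaged 38.4, 68.1, 0, 79.4 and 117 FPKM in the detected cells of preparations 1 to 5, and 36.3, 42.5, 48.9, 51.4 and 26.9 in the others. Both detected cells of preparation 3 were listed at 0, while in the other 4 preparations the detected cells were the higher. Upp1 reached 1 FPKM in 19 of 28 detected cells (67.9%) and 113 of 250 others (45.2%). The difference was 1.55 ± 0.53 (SE; 95% interval 0.42 to 2.68; unadjusted p = 0.0104), and the limma adjusted p was 0.82.

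Nanos3 encodes an RNA-binding repressor that undifferentiated spermatogonia carry. It averaged 83.1, 157, 68.1, 66.1 and 186 FPKM in detected cells and 97.1, 87.4, 65.3, 127 and 71.4 in the others, so the ranges overlapped. It was present in 25 of 28 detected cells (89.3%) and 192 of 250 others (76.8%). The difference was 0.93 ± 0.38 (95% interval 0.12 to 1.74, limma unadjusted p = 0.0273, limma adjusted p = 0.85). The mean log value was higher in 4 of 5 preparations, while the mean FPKM was lower in preparations 1 and 4.

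The remaining progenitor genes gave smaller values. Rarg, the retinoic acid receptor of undifferentiated spermatogonia, was in 14 of 28 detected cells and 67 of 250 others, with a difference of 0.58 ± 0.33. Sox3, a transcription factor needed for spermatogonial progress, was in 14 of 28 and 88 of 250 (0.28 ± 0.28). Lin28a, an RNA-binding protein that blocks let-7 processing, was in 24 of 28 and 190 of 250 (0.29 ± 0.43), and its paralog Lin28b in 17 of 28 and 117 of 250 (0.68 ± 0.40). The limma adjusted p of these genes was 0.90 or higher. Stat3, whose product has been placed upstream of Neurog3, had a difference of -0.47 ± 0.42 and was in 19 of 28 detected cells and 171 of 250 others. Cited2 was also below 0 (-0.40 ± 0.32). It was in 8 of 28 detected cells and 102 of 250 others and was higher in 1 of 5 preparations. Rhox10 differed by 0.04 ± 0.45.

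Sall4, a zinc finger factor of undifferentiated spermatogonia, was the fixed gene with the smallest p. It averaged 330, 452, 205, 439 and 280 FPKM in detected cells of preparations 1 to 5 and 299, 236, 222, 289 and 236 in the others. The mean FPKM was higher in 4 of 5 preparations and the mean log value in 5 of 5, with differences from 0.29 to 0.92. Sall4 was present in 28 of 28 detected cells and 249 of 250 others, so the difference of 0.65 ± 0.17 (95% interval 0.30 to 1.00) concerns its level. The unadjusted p was 0.00125 and the limma adjusted p, over all genes, 0.71. Zbtb16, another factor of undifferentiated spermatogonia, differed by 0.01 ± 0.37. In the list of pluripotency-linked factors 1 of 10 tested genes, Sall4, was higher at an unadjusted p under 0.05 and 0 lower, beside 2.96% and 2.78% of all genes. The median of that list was 0.05, and it was above 0 in 1 of 5 preparations. Klf4, a zinc finger factor of that list, differed by -0.66 ± 0.45.

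**Figure D3:**
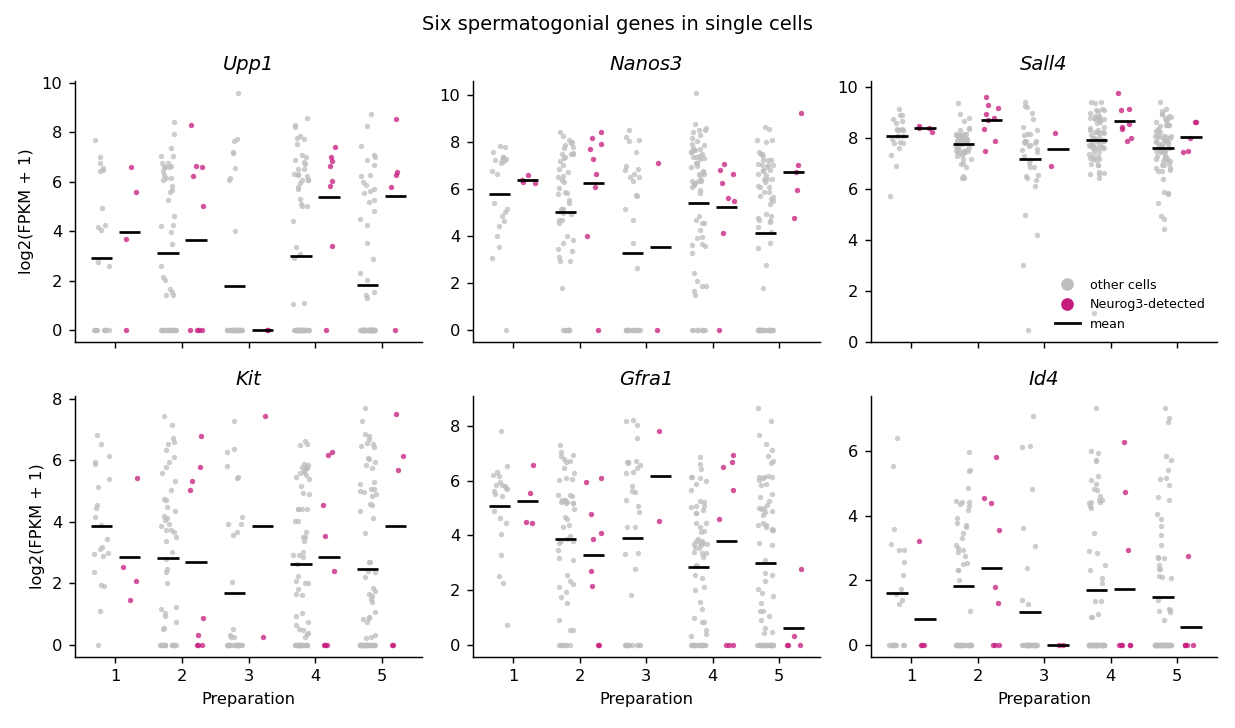
Per-cell log2(FPKM + 1) of Upp1, Nanos3, Sall4, Kit, Gfra1 and Id4 by preparation, grey for other cells and pink for Neurog3-detected cells, with a bar at each mean. Of 168 values of detected cells, 6 lie outside the range of the other cells of their preparation, and both detected cells of preparation 3 are at 0 for Upp1 and Id4.

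Stem cell associated genes mostly had negative differences, and none passed. Of 20 tested, 5 had a fitted difference above 0 and the median was -0.18, beside 0.03 over all genes. An unadjusted p under 0.05 went with a lower value in 3 of the 20 and a higher one in 1, where 2.78% of all genes were lower and 2.96% higher. The median was -0.057 without preparation 5, -0.041 with a quartile term and -0.81 when cells were averaged before the log. Those lower were Tcl1, a coactivator of AKT kinases (-1.17 ± 0.41), Itga6, an integrin used to enrich spermatogonial stem cells (-0.98 ± 0.40), and Dusp6, a phosphatase of ERK (-1.08 ± 0.47). The one higher was Bmi1, a Polycomb protein (0.99 ± 0.39), higher in 5 of 5 preparations. Tcl1 averaged 166, 76.1, 107, 88.4 and 15.02 FPKM in detected cells and 190, 170, 167, 159 and 123 in the others, lower in 5 of 5 preparations by mean FPKM and in 4 of 5 by mean log value.

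For genes that mark the stem cell end of the pool the intervals included 0. Gfra1, the GDNF co-receptor, was in 19 of 28 detected cells (67.9%) and 178 of 250 others (71.2%). Its difference was -0.15 ± 0.49, with a 95% interval of -1.20 to 0.90, and within preparations it ran from -2.38 to 2.27. In preparation 5 the detected cells averaged 1.23 FPKM of Gfra1 and the others 35.1, while in preparation 4 they averaged 48.2 and 18.1. Id4 itself was in 11 of 28 detected cells (39.3%) and 105 of 250 others (42%), with a difference of -0.18 ± 0.34 (95% interval -0.90 to 0.54). Ret, the GDNF receptor kinase (-0.14 ± 0.45), Etv5, an ETS factor induced by GDNF (-0.32 ± 0.42), and Nanos2, a translational repressor of stem cells (0.22 ± 0.34), lay on either side of 0. The limma adjusted p of these 5 genes was 0.96 or higher. An interval this wide does not show that detected and other cells express them alike.

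Among 18 tested genes that respond to GDNF or FGF, 7 had a fitted difference above 0 and the median was -0.12. The list's median was above 0 in 2 of 5 preparations. At an unadjusted p under 0.05, 3 of the 18 were lower and 0 higher, against 2.78% and 2.96% of all genes: Tcl1 and Dusp6, which this list shares with the stem cell list, and Etv4. Etv4, an ETS factor downstream of ERK, was in 5 of 28 detected cells and 95 of 250 others, with a difference of -0.67 ± 0.27, lower in 5 of 5 preparations (limma adjusted p = 0.85). For Etv4 the other cells alone reached the filter's 28 cells, and the part of the filter was not tested. Detected cells averaged 2.21, 2.13, 0, 1.84 and 0.11 FPKM of Etv4 in preparations 1 to 5 and the others 5.93, 4.39, 10.8, 4.26 and 4.34. These preparation means did not overlap, but single cells did. Detected cells reached 13.8 FPKM of Etv4, and the median of the other cells was 0.

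Differentiation genes gave no difference that passed. Kit, the receptor that marks differentiating spermatogonia, was in 17 of 28 detected cells (60.7%) and 147 of 250 others (58.8%). The difference was 0.32 ± 0.45 with a 95% interval of -0.63 to 1.27. Stra8, a retinoic acid target that starts the meiotic programme, was in 23 of 28 and 189 of 250 cells (0.65 ± 0.46), and its difference ran from -1.94 in preparation 1 to 2.34 in preparation 5. Sohlh1 and Sohlh2, helix-loop-helix factors of early differentiation, differed by 0.49 ± 0.31 and 0.37 ± 0.35. Dmrt1, which restrains retinoid response and meiosis in spermatogonia, differed by -0.29 ± 0.24, Dnmt3b, a de novo DNA methyltransferase, by 0.02 ± 0.41, and Ccnd2, a D-type cyclin, by 0.19 ± 0.26. The limma adjusted p of these 7 genes was 0.91 or higher. In the list of differentiating spermatogonia 11 of 14 genes had positive differences, with a median of 0.21. Tex101, a germ cell surface glycoprotein (0.43 ± 0.20), was the one member at an unadjusted p under 0.05, where 2.96% of all genes were higher. The list's median was above 0 in 2 of 5 preparations. The 12 tested retinoid genes had a median of 0.03, with 0 at an unadjusted p under 0.05, and Rara, a retinoic acid receptor, differed by -0.56 ± 0.29. Members under the filter on low genes were not tested. Among them Rxrg was in 9 of 28 detected cells (32.1%) and 17 of 250 others (6.8%). Rarb was in 3 and 4 and Cyp26b1 in 0 and 4.

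Detected cells fell in all 4 combinations of Gfra1 and Kit. Of the 28, 10 had both transcripts at FPKM of at least 1, 9 had Gfra1 without Kit, 7 had Kit without Gfra1 and 2 had neither. The shares were 35.7%, 32.1%, 25% and 7.14%, against 44.8%, 26.4%, 14% and 14.8% of the other cells. For the detected cells the 95% exact binomial intervals, which cover counting error only and do not compare the classes, were 18.6% to 55.9%, 15.9% to 52.4%, 10.7% to 44.9% and 0.88% to 23.5%. The mix differed between preparations in both classes: in preparation 1 all 4 detected cells (100%) and 90.9% of the others had both transcripts, and in preparation 5 it was 20% and 31.5%.

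**Figure D4:**
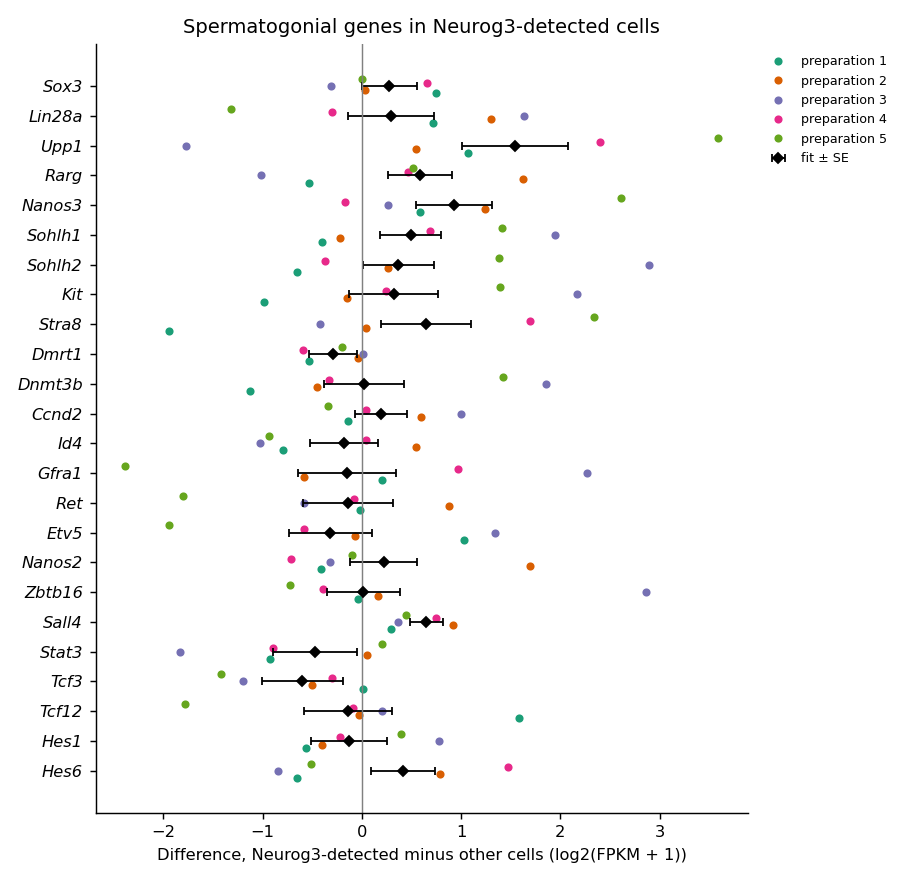
Differences between Neurog3-detected and other cells for 24 spermatogonial and helix-loop-helix genes, in log2(FPKM + 1). Coloured points are the 5 preparations, and black diamonds with bars the fitted difference ± SE; Sall4 is the one gene here with all 5 points to the right of 0 and an SE bar far from it, and it did not pass over all genes.

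The partners of NEUROG3 were present in most detected cells. Tcf3, an E protein, was in 19 of 28 detected cells (67.9%) and 198 of 250 others (79.2%), with a difference of -0.60 ± 0.41. Tcf12 was in 21 of 28 and 192 of 250 cells (-0.14 ± 0.45) and Tcf4 in 19 of 28 and 165 of 250 (0.25 ± 0.38). Of the ID inhibitors besides Id4, Id3 was in 8 of 28 detected cells and 46 of 250 others, Id2 in 2 and 22, and Id1 in 1 and 14, and the last pair did not pass the filter on low genes. Hes6, a helix-loop-helix protein that NEUROG3 induces in other tissues, was in 9 of 28 detected cells and 46 of 250 others (0.42 ± 0.32). Hes1, a repressor downstream of Notch, differed by -0.13 ± 0.38. Hey1, another Notch target, was in 8 of 28 and 41 of 250 cells (0.76 ± 0.38). Of 15 tested helix-loop-helix genes 0 reached an unadjusted p under 0.05, and the median was 0.21. That median was above 0 in 2 of 5 preparations and ran from -0.27 to 0.33 over the alternatives.

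Of the genes that NEUROG3 controls in the embryonic pancreas, most of the endocrine transcription factors on the list were undetected, while several more broadly expressed members were present. Among the 20 fixed members, Btg2 and Gadd45a, which restrain proliferation, were in 20 and 13 of 28 detected cells and in 196 and 104 of 250 others. Isl1, a LIM homeodomain factor, was in 5 and 32, Cbfa2t3 in 3 and 31, Mfng in 6 and 18, Amotl2 in 4 and 23 and St18 in 0 and 21. Neurod1, Insm1, Nkx2-2, Pax4, Rfx6 and Myt1 reached 1 FPKM in 0 of 28 detected cells and 0 of 250 others. A count of 0 of 28 allows a share of up to 10.7%, and 0 of 250 a share of up to 1.20%, for counting error only. Neurod2 and Dll1 were each in 0 detected cells and 1 other cell, and Pax6 in 1 of each. Of the 6 members that passed the filter on low genes, Cdkn1a, a cell cycle inhibitor, was lower at an unadjusted p under 0.05, where 2.78% of all genes were. It was in 5 of 28 detected cells and 68 of 250 others (-0.60 ± 0.24, lower in 5 of 5 preparations, limma adjusted p = 0.85). For Cdkn1a too the other cells alone reached the filter's 28 cells. The median over the 6 was 0.01. Notch pathway genes (15 tested, median -0.05) and STAT3 pathway genes (12 tested, median -0.04) had 0 members at an unadjusted p under 0.05. Jak2, a kinase upstream of STAT3, differed by 0.61 ± 0.38, Stat5a by -0.40 ± 0.26 and Numb, an inhibitor of Notch, by -0.55 ± 0.38.

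Mitotic genes mostly had fitted differences below 0, with no member past the test. Of 46 G2/M genes 12 had a fitted difference above 0 and the median was -0.19, beside 0.03 over all genes. The median was below 0 in 5 of 5 preparations, at -0.065, -0.32, -0.039, -0.28 and -0.38 in preparations 1 to 5. Over all genes it was 0.0048, 0.062, -0.26, 0.046 and -0.066, so in preparation 3 the list lay above all genes. Of the 46, 5 were lower at an unadjusted p under 0.05, where 2.78% of all genes were, and 1 was higher, where 2.96% were. The members lower were Nek2, a centrosome kinase (-1.11 ± 0.40), Cenpe, a kinetochore motor (-0.81 ± 0.30), Ccna2, a cyclin (-1.05 ± 0.45), Aurka, a spindle kinase (-0.99 ± 0.43), and Ckap2l, a spindle protein (-0.93 ± 0.42). The one higher was Cdca8, a subunit of the chromosomal passenger complex (0.46 ± 0.20). Nek2 averaged 2.63, 4.16, 0, 11.2 and 8.47 FPKM in detected cells of preparations 1 to 5 and 13, 17.7, 16.2, 15.4 and 10.9 in the others, lower in 5 of 5 and with overlapping ranges. The proliferation marker Mki67 (-0.04 ± 0.38) and the topoisomerase gene Top2a (-0.33 ± 0.22) were among the members with p above 0.05. The limma adjusted p of the list was 0.82 or higher. For 46 G1/S genes the median was -0.01. Of them 2 were higher and 0 lower at an unadjusted p under 0.05, beside 2.96% and 2.78% of all genes. The 2 were Cdc7, a kinase that fires replication origins (1.03 ± 0.38), and Msh6, a mismatch repair protein (0.95 ± 0.42).

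Other lists stayed near the median of all genes. Beside their counts at an unadjusted p under 0.05, given below, 2.96% of all genes were higher and 2.78% lower. The 84 cytosolic ribosomal protein genes had a median of 0.09, with 62 fitted differences above 0. At an unadjusted p under 0.05, 4 were higher and 2 lower, the lower being Rpl26 (-1.23 ± 0.42) and Rpl39 (-0.62 ± 0.24). The 78 nuclear-encoded genes of the respiratory chain had a median of 0.07, with 4 higher and 3 lower. Among these were Ndufb8 of complex I (0.29 ± 0.11, higher in 5 of 5 preparations) and Cox5a of cytochrome c oxidase (-0.48 ± 0.18). The medians were 0.00 for 19 meiotic prophase genes (1 higher, Syce2, 0.38 ± 0.17), 0.01 for 10 DNA methylation genes (0 of either), -0.02 for 20 mTORC1 and ATF4 genes (0 of either) and -0.09 for 17 immediate early and stress genes (1 lower, Ier3, -0.65 ± 0.28). Of these lists, Sycp3 of the synaptonemal complex differed by 0.23 ± 0.13, Zbtb38, which binds methylated DNA, by -0.31 ± 0.17, and Eif4ebp1 and Tsc1, regulators of mTORC1 signalling, by 0.32 ± 0.18 and 0.48 ± 0.35.

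**Figure D5:**
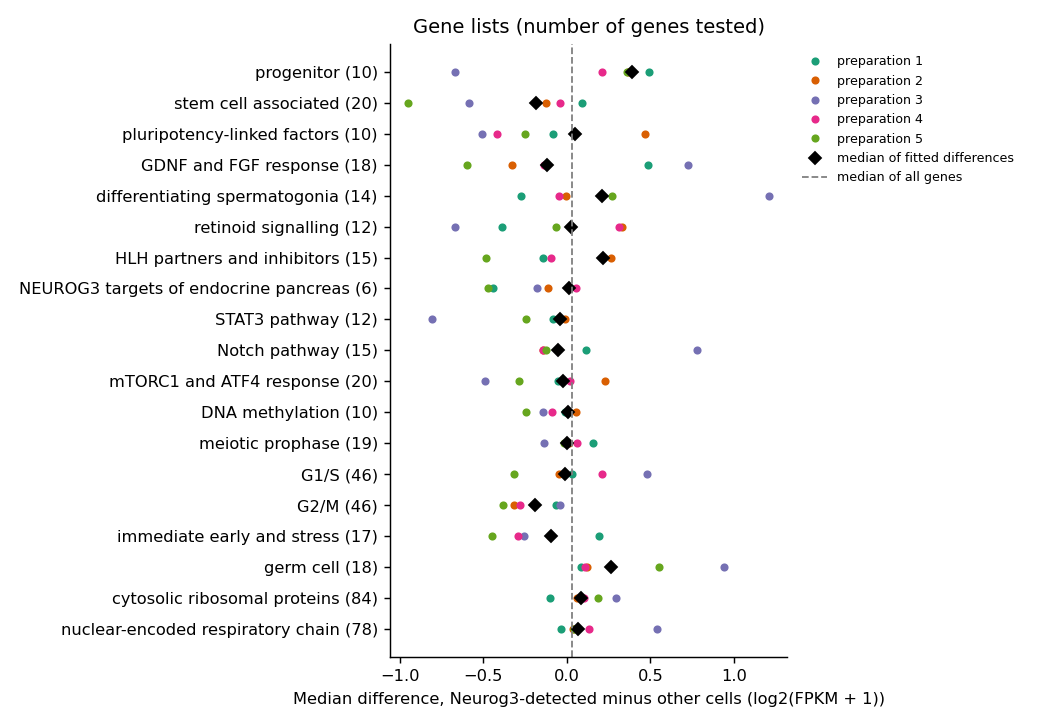
Median difference of each gene list with at least 3 tested genes, in log2(FPKM + 1), with the number of genes tested in brackets. Black diamonds are medians of the fitted differences, coloured points those within each preparation, and the dashed line the median of all genes (0.03); the progenitor list (0.39) lies farthest to the right and the G2/M (-0.19) and stem cell (-0.18) lists farthest to the left.

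The genes of smallest p whose log difference had the same sign in every preparation were not from the lists, apart from Sall4, and none passed. Those higher in detected cells were led by Zfp951, a zinc finger gene (1.72 ± 0.37), and Igtp, an interferon-inducible GTPase (1.67 ± 0.38), both with limma adjusted p = 0.59. By mean FPKM, Zfp951 was lower in detected cells of preparations 3 (36.7 against 92.1) and 5 (60.8 against 85.5). Over the alternatives the Zfp951 difference ran from 0.29 to 2.12. Igtp averaged 6.13, 29.99, 15.1, 22.7 and 11.7 FPKM in detected cells of preparations 1 to 5 and 5.06, 7.87, 1.89, 5.53 and 6.58 in the others. Each preparation's detected cells were the higher, though the ranges overlapped. Igtp was in 16 of 28 detected cells (57.1%) and 53 of 250 others (21.2%). Also among them were Dpp3, a dipeptidyl peptidase (1.52 ± 0.37), Pot1a, a telomere protection protein (1.42 ± 0.34), Nsmce2, a SUMO ligase of the SMC5/6 complex (0.79 ± 0.20), and the unnamed transcript 1810013L24Rik (1.23 ± 0.30). The other 5 were Zfp105 (1.74 ± 0.49), Zmym3 (0.95 ± 0.27), Mgrn1, a ubiquitin ligase (1.40 ± 0.40), Slc4a11, a membrane transporter (1.34 ± 0.39), and Chmp5 of the ESCRT-III machinery (1.17 ± 0.35, but -0.019 when cells were averaged before the log). By mean FPKM, Pot1a was lower in detected cells of preparation 5, Mgrn1 of preparations 1 and 3 and Chmp5 of preparations 1 and 5. The limma adjusted p of the genes named as higher ran from 0.59 to 0.82.

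Most of the genes lower in detected cells were thinly expressed, so that the difference rests on how many cells had a value. Gm12238, an unnamed transcript, was listed at 0 in all 28 detected cells and at FPKM of at least 1 in 28 of 250 others (-1.25 ± 0.23; limma adjusted p = 0.59). Cdc25b, a phosphatase that activates CDK1, was in 2 of 28 detected cells and 61 of 250 others (-0.96 ± 0.22). Zfp11 was in 1 and 55, Trmt12, a tRNA-modifying enzyme, in 2 and 73, and Mageb2 in 5 and 85. The transcript 9530027J09Rik was in 1 and 42, and a gene whose symbol the file holds as 9-Sep in 1 and 62. For each of these genes, and for Etv4, Cdkn1a, Ier3 and Rhox5 of the lists, the other cells alone reached the filter's 28 cells. Detected cells alone could reach it only if all 28 had the gene. A sparse gene confined to other cells thus passes the filter more easily than one confined to detected cells, and the part of this was not tested. Pak2, a kinase activated by small GTPases, was in 8 and 147 (-1.38 ± 0.33). It averaged 1.02, 2.76, 0, 0.53 and 3.41 FPKM in detected cells and 8.04, 10.3, 16.3, 6.84 and 11.5 in the others. These preparation means did not overlap, but single cells did. Detected cells reached 20.3 FPKM of Pak2, and the median of the other cells was 2.35. Stk17b, a kinase linked to apoptosis, averaged 5.88 ± 4.58 and 29.7 ± 6.55 FPKM (SD, n = 5; -1.59 ± 0.41). Ltv1, an assembly factor of the small ribosomal subunit, differed by -1.15 ± 0.31 and Hist1h4d, a histone H4 gene with near-identical copies whose reads may be shared, by -1.31 ± 0.32. Hist1h4d was in 22 of 28 detected cells and 221 of 250 others. In preparation 1 its log difference was -0.021, and by mean FPKM it was higher in detected cells there (554 against 519).

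On GRCm38, Upp1 lies on chromosome 11 at 9118103 to 9136170 and Sall4 on chromosome 2 at 168748332 to 168767943. Exons of Sall4, Lin28a, Id4, Gfra1, Nanos2, Ccnd2, Cdc25b and Nek2 overlap a gene on the opposite strand, and those of Stat3 and Stat5a overlap each other. Exons of Igtp overlap Irgm2 on the same strand, and those of Gm12238 overlap Gm22884. Values of these genes are uncertain to the extent that reads were shared.

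Markers of other testis cell types were few per cell, though some cells had them. Of 28 detected cells, 19 had no Sertoli marker at 1 FPKM or more, 24 no Leydig, 21 no macrophage, 17 no endothelial and 13 no peritubular or stromal marker. Among the 250 others these counts were 159, 199, 211, 197 and 146. A detected cell had at most 2 markers of any of these types and another cell at most 8, which were Sertoli markers. The Sertoli genes Amh and Fshr, the Leydig genes Cyp11a1, Cyp17a1 and Insl3 and the stromal genes Col3a1 and Dcn were listed at 0 in every cell. The summed Sertoli level was 0 to 82.2 FPKM in detected cells and 0 to 727 in the others. Endothelial markers summed to 9.96 ± 11.1 FPKM in detected cells and 2.66 ± 2.95 in the others (SD, n = 5), from 0 to 149 and from 0 to 54.01 in single cells. Pecam1, an adhesion molecule of endothelium, averaged 8.39 FPKM in detected cells and 0.94 in the others. It was in 7 of 28 detected cells and 21 of 250 others (0.74 ± 0.24, limma unadjusted p = 0.00655, limma adjusted p = 0.82), higher in 3 of 5 preparations, and its part in the other differences was not tested. Without the detected cells Pecam1 would not have reached the filter's 28 cells. Of the other endothelial genes Kdr, Tie1, Emcn, Esam and Cldn5 were listed at 0 in all detected cells. Of the few other markers that passed the filter, Rhox5 of the Sertoli list was in 2 of 28 detected cells and 38 of 250 others (-0.48 ± 0.21, limma adjusted p = 0.86). Star of the Leydig list differed by -0.28 ± 0.23, Pdgfra and Col1a1 of the stromal list by 0.30 ± 0.24 and 0.15 ± 0.28, and Cd68 of the macrophage list by 0.23 ± 0.23.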

How the data were processed

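Per the labels, single EGFP-positive spermatogonia were sequenced after capture on a Fluidigm C1 chip, and dead cells, multiplets and wells with debris were left out before deposit. The deposited matrix gives FPKM for 23354 genes in 278 cells. The unit was read from the quantifier named in the submitters' processing notes, Cufflinks (listed with TopHat, Picard and FastQC and the build mm10 or GRCm38), and from the values, since the header does not state it. The sources used here give no version, setting or annotation. A count model was not applied to FPKM. Gapdh was listed at 0 in 1 cell, so an exact 0 can be a failed estimate.

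Cells were classed by Neurog3 at FPKM of at least 1, and the mean of log2(FPKM + 1) was taken per preparation and class. The run number in the titles (1 to 5) was taken as the preparation, and p-values rest on the spread between preparations, with the sampling of few cells included. The 10 means, weighted by their number of cells, were fitted with limma 3.58.1 (R 4.3.3, trend = TRUE) with class and preparation, which left 4 residual degrees of freedom. For each gene limma combined that gene's spread with a trend over all genes (12.13 prior degrees of freedom), so its p-values and intervals rest on both. A gene was kept if 28 or more cells (10%) reached 1 FPKM, Neurog3 and the overlapping Fam241b were left out, and Benjamini-Hochberg adjustment ran over the 10450 genes left. No set test was run. Single values were tested by exact sign permutation over preparations (scipy 1.17.1). The means pair by preparation, since they come from the same suspension: their deviations correlated at 0.12 to 0.27 across genes within preparations, against a median of -0.08 between them. The highest correlation between 2 cells was 0.69, so no 2 libraries held the same values.

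Depth was estimated from the step of 1 fragment in low FPKM of 2110 genes that have a single annotated transcript, 1500 bases or longer, assuming fragments of 200 bases. It had a median of 665157 mapped fragments per cell, from 215298 to 1318201, and in 274 of 278 cells the estimates from separate gene sets lay within 1.25-fold. Of 3 ways tried to score the step, the one with the most such cells was kept, so this agreement is no separate check of the estimate. Of the symbols, 21695 were matched to GENCODE M21, from which coordinates come.

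The class, the 24 gene lists and the 25 fixed genes were chosen with earlier results of these data known. The text names the 12 genes of smallest p in each direction (where too few pass, those with the same sign in every preparation), the fixed genes, and 2 members of each list; a few of the genes so chosen are not reported here. Itga6, Dusp6, Lin28b, Cited2, Rhox10, Tcf4, Ccna2, Aurka, Ckap2l, Cdca8, Mki67 and Top2a were named after their values were seen, as were genes given only by the number of cells that express them. The alternatives changed the pseudocount, filter, scale, block, weights, comparison cells, Neurog3 threshold and preparations.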

Additional observations from a re-analysis of the deposited data

Results flagged for a closer look

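Among 103 values checked over the 5 preparations, 10 had 1 preparation far from the others by Dixon's criterion, which chance meets about 1 time in 20. In 8 of them it was preparation 3, which has 2 detected cells. There Zbtb16 stood at 2.86, against -0.72 to 0.17 in the others, Cdc7 at 3.95 (0.04 to 1.17), Asz1 at 2.44 (-0.04 to 0.64), Pdgfra at 1.75 (-0.05 to 0.46) and Tsc1 at -1.63 (0.36 to 0.90). The medians of 3 lists also stood apart there: the progenitor list at -0.67 (0.21 to 0.49), the Notch list at 0.78 (-0.14 to 0.12) and the respiratory chain list at 0.54 (-0.03 to 0.13). Nanos2 stood at 1.69 in preparation 2 (-0.72 to -0.10 in the others) and Sycp3 at -0.43 in preparation 1 (0.20 to 0.37). The part of cell number in these values was not tested.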

How the results depend on the processing

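With 2 to 9 detected cells per preparation, depth and cell number limit every single-gene statement. The count of 0 genes at a limma adjusted p under 0.05 held in 17 of 18 alternatives. Those without the replicate block called 0 (127 at an unadjusted p under 0.05), as did those that left out each preparation (0 to 0; 526 to 684), and the log of the mean over cells called 1, Gm12238, which is listed at 0 in all detected cells (779 at an unadjusted p under 0.05, 67 higher and 712 lower). Without a filter 0 of 17105 genes passed (1448 at an unadjusted p under 0.05, 337 higher and 1111 lower). With 1 preparation left out in turn, the difference in detected genes ran from 44.1 to 133, the share in dimmer minus brighter quartiles from 3.91 to 7.52 percentage points, the log2 depth ratio from -0.086 to 0.026 (0.026 without preparation 2) and the median over all genes from 0.014 to 0.041. That median turned to -0.0072 without a filter, -0.034 with detected genes as a covariate, -0.012 with matched cells and -0.23 with the log of the mean; the cause was not tested. The progenitor list's median ran from 0.032 (detected genes as a covariate) to 0.70 (pseudocount of 0.1), that of the stem cell list from -0.81 (log of the mean) to -0.041 (means per quartile) and that of the G2/M list from -0.30 to -0.12. Upp1 ran from 0.36 to 2.18, Nanos3 from 0.22 to 1.37 and Sall4 from 0.44 to 0.73 over all alternatives, with limma adjusted p from 0.29 to 1.

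Sign changes were looked for only in the 80 genes chosen as described above. Differences of 19 of these 80 genes turned sign under some alternative, among them Chmp5 (1.17), Jak2 (0.61) and Rarg (0.58), which are not small. With detected genes as a covariate these were Lin28a (-0.17), Rarg (-0.053), Nanos2 (-0.33), Hes1 (0.29), Hes6 (-0.33), Jak2 (-0.25), Tsc1 (-0.090), Col1a1 (-0.16) and Cd68 (-0.052). With the log of the mean they were Dnmt3b (-0.054), Zbtb16 (-0.041), Lin28a (-0.25), Nanos2 (-0.87), Hes6 (-0.27), Col1a1 (-0.062), Cd68 (-0.70), Chmp5 (-0.019) and Ccnd2 (-0.26). With matched cells they were Dnmt3b (-0.23), Cd68 (-0.034) and Kit (-0.085). With other cells weighted to the quartile mix they were Dnmt3b (-0.0033), Id4 (0.043), Gfra1 (0.11) and Tcf12 (0.018), and with means per quartile Dnmt3b (-0.014) and Gfra1 (0.049). A pseudocount of 0.1 gave -0.035 for Dnmt3b and -0.094 for Zbtb16. Any Neurog3 value gave -0.029 for Zbtb16 and 0.030 for Id4, and at least 5 FPKM gave Dnmt3b -0.088, Zbtb16 -0.065, Nanos2 -0.084 and Tcf12 0.070. Without the block Ret was 0.013, and without weights Gfra1 was 0.095. Leaving out preparation 2 gave Zbtb16 -0.053, Lin28a -0.16, Nanos2 -0.44, Col1a1 -0.14 and Gfra1 0.044. Leaving out preparation 3 gave Dnmt3b -0.13 and Zbtb16 -0.22, preparation 4 Hes6 -0.0093, and preparation 5 Dnmt3b -0.30, Ret 0.25, Gfra1 0.37, Tcf12 0.24 and Etv5 0.063.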

Other observations

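Of the genes within 250 kb of Neurog3 on chromosome 10, Hk1 and Tspan15 were tested and neither passed, while Fam241b was left out of the test. Hk1, a hexokinase gene 134 kb away, was in 18 of 28 detected cells and 111 of 250 others (0.63 ± 0.36, limma adjusted p = 0.90). Tspan15, a tetraspanin gene 50.6 kb away, was in 2 and 42 (-0.33 ± 0.19, limma adjusted p = 0.90). Col13a1 was in 3 and 18 and Gm5424 in 2 and 12, both under the filter, and Tacr2 and Hkdc1 were in 0 cells of either class.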
